A study of Rattus norvegicus with 12 samples.

Results

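Gene expression was compared between uninjured dorsal root ganglia of 2 pain lines of rats, which covers 6 of the 12 arrays of the study. The members were the 3 arrays titled as sham-operated Low Pain (LP) rats and the 3 titled as sham-operated High Pain (HP) rats, chosen by title alone. Every probe set that is not a control was tested, 15866 in all, and the difference is always LP minus HP. All animals were adult male Sprague Dawley rats of 1 of the 2 genetic sub-lines, and the tissue was the ganglia at L4/L5. In sham rats the operation spared the nerve, and the sources used here do not give the time from the sham operation to tissue collection. The other 6 arrays, 3 per line, came from rats whose L4 and L5 spinal nerves had been tied 3 days earlier (spinal nerve ligation, SNL), and they are used here as the same line contrast on separate arrays. The breeding of the lines is not described in the labels. Whether replicate arrays hold different animals is not stated in the labels, and a p-value here therefore covers the scatter among these arrays alone, which may be technical.

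The dorsal root ganglion holds the cell bodies of the sensory neurons that carry touch, temperature and pain from the body, wrapped by satellite glia and supplied by resident macrophages, Schwann cells and vessels. Nociceptors, the neurons of pain, are recognised by sodium channels such as Scn10a, the capsaicin receptor Trpv1 and peptides such as substance P and CGRP. Rat lines bred apart can differ at many genes before any injury, so sham ganglia give the difference between lines that ligation does not enter. The title of the study points to the protease inhibitor SerpinA3N and its target leukocyte elastase in neuropathic pain.

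The arrays were close to each other. The median signal lay between 278.4 and 300.4 on the 6 sham arrays, where a signal is the deposited linear intensity of a probe set. Correlations of log2 signals between 2 arrays were 0.955 to 0.965 within HP sham, 0.941 to 0.959 within LP sham and 0.937 to 0.961 between the lines. LP sham replicate 1 had the lowest of these, at 0.941 to 0.951 with its own group. The actin 3' to 5' signal ratio, a sign of RNA integrity, was 1.85, 1.48 and 1.77 on the HP sham arrays and 1.88, 1.15 and 0.993 on the LP sham arrays. The same ratio of Gapdh was 1.09 to 1.17 in HP and 1.06 to 1.10 in LP. Transcripts of nociceptors were bright in both lines, with mean signals of 2818 ± 170 (SD, n = 3) and 2711 ± 163 for Scn10a and 6408 ± 231 and 5753 ± 315 for the CGRP gene Calca in HP and LP. In whole ganglia, fewer cells of a type and less RNA per cell cannot be told apart. The files carry no detection call, so a dim signal has no lower bound of its own, and the number of arrays limits the precision.

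After sham, 7 of 15866 probe sets passed an adjusted p of 0.05 by limma, 0.0441% of those tested, 1 higher (0.0063%) and 6 lower in LP (0.0378%). Of the 7, 3 carried a single gene symbol (Scaf1, Zswim6 and Gpx2) and 4 carried none. At an unadjusted p under 0.05 there were 1500 probe sets (9.45%), 773 higher (4.87%) and 727 lower (4.58%). All 3 LP values lay on 1 side of all 3 HP values for 2440 probe sets (15.4%), 1344 above (8.47%) and 1096 below (6.91%), and 587 (3.7%) were apart on the same side after ligation too. The median log2 difference over all probe sets was 0.02, and 5% lay below -0.65 and 5% above 0.50. The count of 7 depended on single arrays. It was 0 without HP sham replicate 1, HP sham replicate 2, LP sham replicate 3 or HP SNL replicate 2, 1 without LP sham replicate 1, 2 without LP SNL replicate 1 or 3, 4 without LP SNL replicate 2 and 11 without HP sham replicate 3. In these fits the log2 differences of the 7 kept sizes of 0.95 to 2.33, with adjusted p-values up to 0.161. The count was also 0 when only the 6 sham arrays were fitted, where the adjusted p of the 7 lay between 0.234 and 0.383 and 1265 probe sets had an unadjusted p under 0.05.

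**Figure D1:**
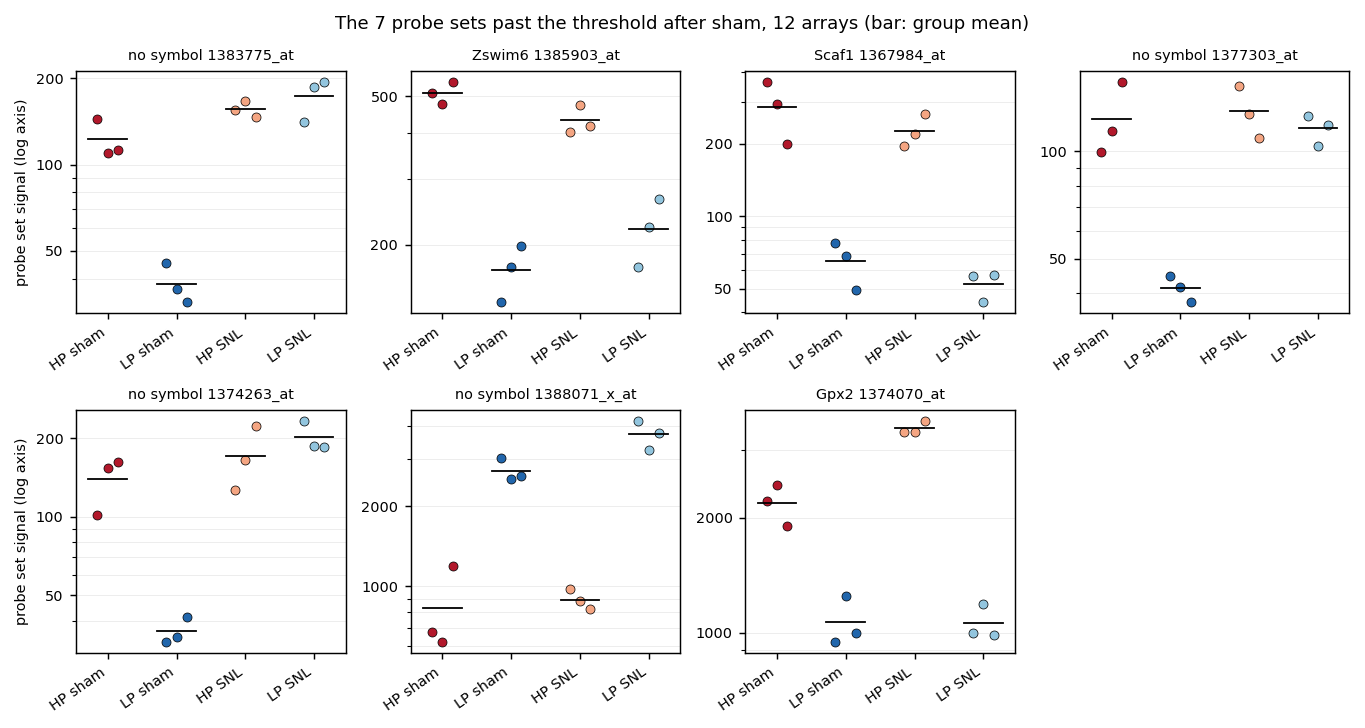
Signal of the 7 probe sets past the adjusted p of 0.05 after sham, on a log axis, for each of the 12 arrays; points are arrays, 3 per group, and bars are group means. In each panel the 3 LP sham points lie apart from the 3 HP sham points, and for Scaf1, Zswim6, Gpx2 and 1388071_x_at the lines are also apart after ligation, while 1383775_at, 1377303_at and 1374263_at are low on the LP sham arrays only.

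Scaf1, which encodes a splicing-related protein that binds RNA polymerase II, had signals of 363.2, 293.1 and 199.5 on the HP sham arrays and 77.5, 68.3 and 49.3 on the LP sham arrays. The groups did not overlap, and Scaf1 was lower in LP by a log2 difference of -2.10 ± 0.24 (SE; limma adjusted p = 0.0295). Its difference after ligation was -2.09 ± 0.24 (limma adjusted p = 0.0232), from 196.6, 220 and 265.2 in HP to 56.4, 43.9 and 56.9 in LP, again with no overlap. The call after sham was lost without any 1 of HP sham replicates 1 and 2, LP sham replicates 1, 2 and 3, HP SNL replicate 2 and LP SNL replicates 1 and 3 (adjusted p 0.0603 to 0.0951, log2 -2.24 to -1.90). It was also lost with the replicate block (adjusted p 0.0905), quantile normalization (0.108), the actin covariate (0.0592) and the 6 sham arrays alone (0.278), and 11 of 24 alternatives kept it. Scaf1 had 1 probe set.

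Zswim6, a gene of a zinc finger protein, had signals of 512.3, 476.1 and 547.9 on the HP sham arrays at probe set 1385903_at, and 140.3, 174.3 and 198.6 on the LP sham arrays. The lowest HP value was thus above the highest LP value, with a log2 difference of -1.59 ± 0.17 (limma adjusted p = 0.027). After ligation the difference at this probe set was -0.98 ± 0.17 (limma adjusted p = 0.0745). The other Zswim6 probe sets did not follow. At 1390205_at the HP values were 954.8, 788.3 and 941.1 and the LP values 886.8, 970.4 and 1020.3 (0.10 ± 0.11), and at 1394012_at the difference was -0.03 ± 0.15, with overlapping groups at both. These 2 probe sets were brighter than 1385903_at, and the mean over the 3 gave a log2 difference of -0.51 (limma adjusted p = 0.19). The call at 1385903_at was lost without any 1 of HP sham replicates 1 and 2, LP sham replicates 1, 2 and 3 and HP SNL replicate 2 (adjusted p 0.054 to 0.0886), with the replicate block (0.0643) and with the 6 sham arrays alone (0.234).

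Gpx2 encodes a glutathione peroxidase, an enzyme that reduces hydroperoxides with glutathione. It had signals of 2209, 2428.6 and 1895.3 on the HP sham arrays and 948, 1247.5 and 997.7 on the LP sham arrays, so that the highest LP array was below the lowest HP array. The log2 difference after sham was -1.04 ± 0.14 (limma adjusted p = 0.0472). After ligation HP had 3337.4, 3350.8 and 3576.3 and LP had 997.6, 1186.3 and 987.6. Gpx2 was brighter on all 3 HP SNL arrays than on any HP sham array, whereas the LP SNL and LP sham arrays overlapped. The line difference after ligation was -1.70 ± 0.14 (limma adjusted p = 0.00382). The change in the line difference between sham and ligation had an unadjusted p of 0.00671 but a limma adjusted p of 0.918. The call after sham stood close to the threshold and was kept in 6 of 24 alternatives. It was lost without any 1 array other than HP sham replicate 3 and LP sham replicate 2 (adjusted p 0.0525 to 0.161, log2 -1.04 to -0.95).

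Because Gpx2 was the called gene with the highest signal, and peroxidase genes of the oxidative stress response are known to carry antioxidant response elements, the 250 bases before its start are shown (RefSeq, GRCr8, chr6:101230034-101230283, minus strand), with a match to the element's core in capitals.
Gpx2: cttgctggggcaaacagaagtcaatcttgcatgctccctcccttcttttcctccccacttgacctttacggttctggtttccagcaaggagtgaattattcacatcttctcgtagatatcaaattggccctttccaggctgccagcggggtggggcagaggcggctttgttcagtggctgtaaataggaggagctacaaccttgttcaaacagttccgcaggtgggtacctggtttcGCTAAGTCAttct
The core searched was TGACNNNGC on both strands, which 10.1% of 33360 distinct rat windows of this length held. It shares its first letters with the AP-1 site TGACTCA. In Gpx2 the match lay on the reverse strand, 13 to 5 bases before the start. A match of letters is not shown to be a bound site. The glutathione synthesis gene Gclm also held the core in its window, and Nqo1, Gclc and Txnrd1 did not.

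The other 4 called probe sets have no gene symbol here. Probe set 1388071_x_at was the only one higher in LP. Its signals were 671.6, 621.1 and 1194.9 on the HP sham arrays and 3019.8, 2524.1 and 2596.8 on the LP sham arrays (log2 1.77 ± 0.22, limma adjusted p = 0.0358), and 975.5, 878.6 and 822 against 4166.8, 3249.2 and 3748.1 after ligation (2.06 ± 0.22, limma adjusted p = 0.0191). The lines were therefore apart on all 12 arrays; the ending x_at marks a probe set with probes that match more than 1 transcript. The remaining 3 probe sets were low on the LP sham arrays alone. At 1383775_at the HP sham arrays had 144.4, 110.1 and 112.6 and the LP sham arrays 45.2, 36.8 and 33.1 (-1.65 ± 0.17, limma adjusted p = 0.027). At 1377303_at the HP sham arrays had 99.8, 113.7 and 156.8 and the LP sham arrays 44.8, 41.6 and 37.8 (-1.53 ± 0.18, limma adjusted p = 0.0295). At 1374263_at the HP sham arrays had 102, 153.4 and 162.7 and the LP sham arrays 33.3, 34.7 and 41.3 (-1.88 ± 0.23, limma adjusted p = 0.032). After ligation the lines overlapped at all 3, with differences of 0.14 ± 0.17 for 1383775_at, -0.15 ± 0.18 for 1377303_at and 0.26 ± 0.23 for 1374263_at. The interaction, which tests whether the line difference differs between sham and ligation, passed for none of the 15866 probe sets (limma, lowest adjusted p = 0.223; 747 probe sets, 4.71%, at an unadjusted p under 0.05), but for 2 without HP sham replicate 3, 3 without HP SNL replicate 2 and 1 without HP SNL replicate 3. Leaving out 1 array removed the call after sham of 1388071_x_at, 1374263_at, 1377303_at and 1383775_at in 11, 10, 9 and 4 of 12 cases, with adjusted p-values of 0.0508 to 0.145. Among these, HP sham replicates 1 and 2, LP sham replicate 3 and HP SNL replicate 2 ended the call of all 4.

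Below the threshold, the next 13 probe sets by p completed the 20 with the smallest p. RT1-Bb, an MHC class II beta chain gene, had signals of 635.6, 559.1 and 772.1 on the HP sham arrays and 185.9, 166 and 158.4 on the LP sham arrays at probe set 1371065_at (-1.93 ± 0.27, limma adjusted p = 0.0744). Tfe3, a transcription factor of lysosomal genes, had 83.2, 81.1 and 68.1 in HP and 164, 157.2 and 178.3 in LP (1.10 ± 0.16, limma adjusted p = 0.0786). Mfsd5, a membrane transporter gene, had 709.7, 718.1 and 819.5 in HP and 1267.3, 1121.1 and 1381.3 in LP (0.74 ± 0.11, limma adjusted p = 0.0803). In each of these the sham groups were fully apart, as they were for all 20. Rtel1, a helicase of telomere maintenance, had a log2 difference of -0.85 ± 0.13 (402 ± 22.1 against 224 ± 26.0), and Golph3, a Golgi protein, one of 0.78 ± 0.13 (650 ± 25.1 against 1118 ± 125; signals SD, n = 3). Cdc34, a ubiquitin-conjugating enzyme gene, had -0.64 ± 0.10 at 1388400_at, with -0.20 ± 0.13 and -0.71 ± 0.40 at its other probe sets. Npw, the neuropeptide W gene, and Znf865, a zinc finger gene, were near the bottom of the scale, with all signals between 6.9 and 14.1 for Npw and between 10.2 and 19.1 for Znf865 on the sham arrays. The probe sets 1385889_at, 1387366_at, 1390364_at and 1398767_at had differences of 1.41, -0.80, 0.70 and -0.66 and no symbol. The MHC gene RT1-T24-4 is described with its family below.

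Most of these differences were present again on the ligated arrays, which share no array with the sham contrast. Of the 20 probe sets with the smallest p after sham, 18 had the same sign after ligation and 14 had the same sign with an unadjusted p under 0.05, against 7.94% of all probe sets. Of the first 100, 85 had the same sign and 59 also an unadjusted p under 0.05, and of the first 200 the counts were 166 and 100. Over all probe sets 59.8% had the same sign. Both contrasts used 1 estimate of the spread per probe set, so a probe set of low spread has a smaller p in both. With each contrast fitted on its own 6 arrays, 15 of the first 20 had the same sign and 7 also an unadjusted p under 0.05, against 6.88% of all. The count of 14 became 8 once the actin ratio entered the fit, and 7 without HP sham replicate 1 or LP sham replicate 3. Probe sets called after both operations with the same sign were Scaf1, Gpx2 and 1388071_x_at. There were 5 such probe sets without HP SNL replicate 3, 1 without HP SNL replicate 1, and 0 without HP sham replicate 1 or 2, HP SNL replicate 2, LP sham replicate 1 or 3 or any LP SNL array.

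**Figure D2:**
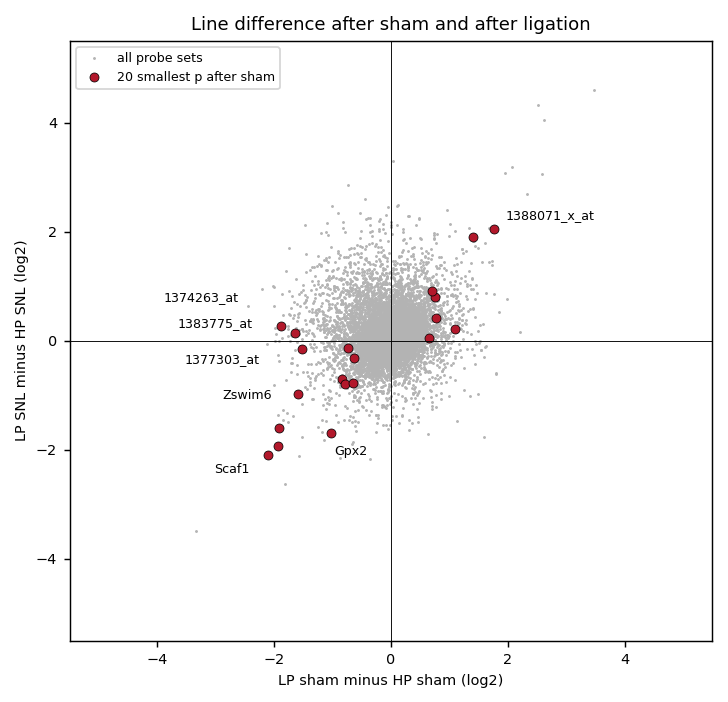
Line difference after sham (x axis) against line difference after ligation (y axis), both LP minus HP on the log2(signal + 1) scale, for all 15866 probe sets (grey) and the 20 with the smallest p after sham (red; the 7 called are named). Of the 20 red points, 18 lie in the quadrants where both differences have the same sign.

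The likeness of the 2 line contrasts followed brightness. Across probe sets, Pearson's r between the difference after sham and that after ligation was 0.02 for the 25% with the lowest mean signal, 0.26 and 0.46 for the next 2 groups of equal size and 0.60 for the brightest 25%, as a description over probe sets that share arrays and are not independent. The median SE of the sham difference was 0.44 in the dimmest group and 0.12 in the brightest. The dimmest group reached a mean signal of 125 and held 2 of the 7 calls. With it left out the count was 15 of 11899, 6 higher and 9 lower in LP.

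A large, clean separation on both sets of arrays was rare. After sham, 196 probe sets (1.24%) were at least 2-fold apart with no overlap, 67 higher and 129 lower in LP, and after ligation 334 (2.11%). Both held, in the same direction, for 33 probe sets (0.208%), 16 higher and 17 lower, which is 16.8% of the first count and 9.9% of the second. Beside those above, they included Fam111a, a protease gene, with 62.5, 137 and 159.9 on the HP sham arrays and 476.9, 358.8 and 465.3 on the LP sham arrays (1.94 ± 0.38, limma adjusted p = 0.159). Ythdf2, a reader of methylated RNA, had 81.2, 116.3 and 169.9 in HP and 523, 569.5 and 687.6 in LP at 1371960_at (2.32 ± 0.39, limma adjusted p = 0.12). Its brighter probe set 1375695_at overlapped between the sham groups (-0.08 ± 0.23, above 0 with array weights). Sgcb, a sarcoglycan of the membrane, had 21.9, 111.7 and 141.4 in HP and 367.4, 340 and 542.2 in LP (2.51 ± 0.57, limma adjusted p = 0.227). Lower in LP were Bmp6, a bone morphogenetic protein gene (-1.18 ± 0.51), Lyve1, a hyaluronan receptor of lymphatic vessels and some macrophages (-1.84 ± 0.57), and Pi16, a gene of adventitial fibroblasts (-1.53 ± 0.53). None of these 6 genes passed the adjusted threshold after sham, and they were picked after their values were seen.

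Probe sets of 1 gene often had opposite signs. Of 1868 genes with more than 1 probe set, 907 (48.6%) had all differences of the same sign. Among the 378 with any unadjusted p under 0.05 the share was 50.5%, and with dim probe sets (mean signal under 100) left out it was 55.3% of 284. Only 1 such gene, Zswim6, held a called probe set, and no gene had all its probe sets called. In 11 genes every probe set had an unadjusted p under 0.05 and the same sign, and the 5 named here were chosen after their values were seen. Arsb, the lysosomal arylsulfatase B gene, was higher in LP at 2 probe sets, with 465.5, 488.9 and 542.4 in HP and 996.5, 892.8 and 1024.1 in LP at the brighter one (0.96 ± 0.19, and 0.33 ± 0.11 at the other). Igfbp6, a binding protein of insulin-like growth factor, had 1435.8, 1431.3 and 1422.9 in HP and 485, 676.7 and 648.8 in LP at 1387625_at (-1.26 ± 0.26, and -0.59 ± 0.17 at the other). Both pairs kept the groups apart, and both had the same sign after ligation. The neuronal intermediate filament gene Ina had -0.44 ± 0.10 and -0.53 ± 0.13, the RNA-binding protein gene Caprin1 had 0.28 ± 0.10 and 0.30 ± 0.08, and the TGF-beta co-receptor gene Tgfbr3 had 0.28 ± 0.09 and 0.31 ± 0.13. The limma adjusted p of these 5 genes lay at 0.161 or above. No called gene had another called gene among the 2 nearest measured genes on either side.

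Antigen presentation genes held the highest share of separated probe sets of the gene groups examined, with 15 of 36 (41.7%) apart between the sham groups beside 15.4% of all probe sets, 9 with LP below and 6 with LP above. None passed the adjusted threshold, and the median difference was 0.07. MHC class II molecules, which show peptides to helper T cells, are pairs of an alpha and a beta chain. RT1-Ba, the alpha chain partner of RT1-Bb, had 1214, 1146.8 and 1214.9 on the HP sham arrays and 262.3, 716.3 and 623.7 on the LP sham arrays at 1370822_at (-1.28 ± 0.41), and 462.5, 379.2 and 403.4 against 36, 310.3 and 132.8 at 1377334_at (-1.84 ± 0.62). LP sham replicate 1 was the lowest LP array at both. After ligation 1377334_at kept its sign (-1.46 ± 0.62), whereas the lines overlapped at 1370822_at (0.47 ± 0.41). Cd74, the invariant chain that guides class II molecules, had 1903.3, 1966.4 and 2001.3 in HP and 766.4, 1408.6 and 825.8 in LP (-1.02 ± 0.22, limma adjusted p = 0.182). RT1-Da, of the other class II pair, had -0.59 ± 0.28, and the peptide loading genes RT1-DMa and RT1-DMb had -0.17 ± 0.11 and 0.01 ± 0.09, the last turning below 0 with quantile normalization, median centring and the actin covariate. Ciita, the activator of class II transcription, ran the other way, with 66.1, 112.9 and 72.1 in HP and 339.8, 221.6 and 208.8 in LP (1.61 ± 0.31, limma adjusted p = 0.159), and no such gap after ligation (-0.12 ± 0.31).

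RT1-Bb showed opposite differences at its 2 probe sets. At 1371033_at the HP sham arrays had 64.6, 77.3 and 167.7 and the LP sham arrays 393.1, 520.6 and 313.8 (2.07 ± 1.00), against -1.93 at 1371065_at, and the mean of both was 0.07. On the ligated arrays both signs returned, except that HP SNL replicate 3 lay near LP at 1371033_at (440.7, where the other HP SNL arrays had 27.6 and 13.6). Class I genes, which show peptides to cytotoxic T cells, were divided too. RT1-T24-4 had 877.1, 804.1 and 837.7 in HP and 219.7, 344.3 and 145.4 in LP (-1.91 ± 0.30, limma adjusted p = 0.0922), while RT1-CE5 had 154.5, 178.5 and 171.5 in HP and 355.5, 401.6 and 415.6 in LP at 1370972_x_at (1.21 ± 0.21, limma adjusted p = 0.126). The RT1-CE5 probe sets 1371209_at and 1388255_x_at were at 4.4 to 25.8 in HP and 22.8 to 140.8 in LP (3.48 ± 0.87 and 2.61 ± 0.86), 1371210_s_at had 0.54 ± 0.29, and 1388254_a_at was dim in both lines. Members of the RT1 class I family, and of class II, can share sequence, and no probe sequences were examined, so which member a probe set measures is uncertain. HP SNL replicate 3 was also the HP SNL array nearest LP at 1371209_at (67.8, against 6.6 and 6.5) and 1388255_x_at (118.7, against 5.9 and 9.4). The same held at Ythdf2 1371960_at (283, against 96.6 and 96.7). It did not hold at RT1-T24-4 (1010.4, against 1001.5 and 1101.9) or Scaf1 (265.2, against 196.6 and 220). Without HP SNL replicate 3 the count called after sham was 9, and RT1-CE5 passed at 1370972_x_at (limma adjusted p = 0.0197) and at 1388255_x_at (0.0223).

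**Figure D3:**
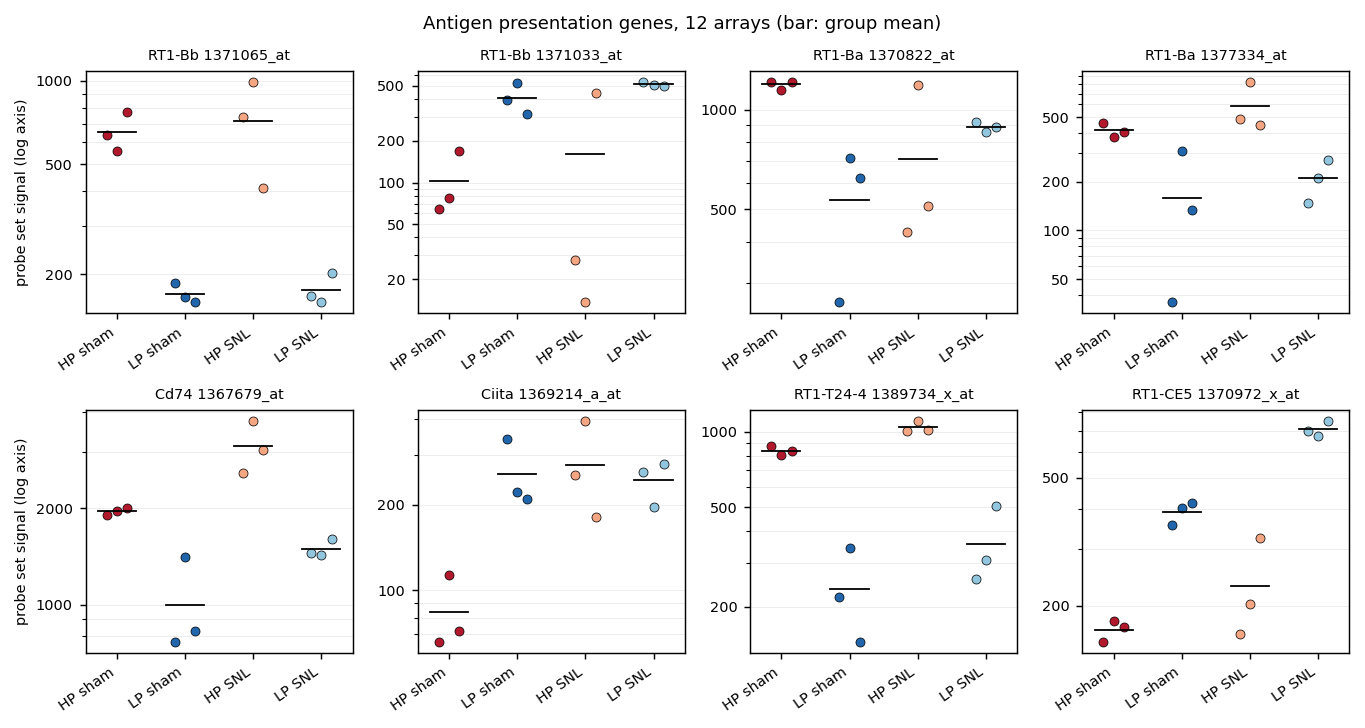
Signal of 8 probe sets of antigen presentation genes on a log axis for each of the 12 arrays; points are arrays, 3 per group, and bars are group means. RT1-Ba, Cd74 and RT1-T24-4 are lower on the LP sham than on the HP sham arrays, Ciita and RT1-CE5 are higher, and the 2 RT1-Bb probe sets go opposite ways, with HP SNL replicate 3 away from its group at 1371033_at.

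The windows of 250 bases before the start of RT1-Bb and RT1-Ba are shown because both chains of this class II molecule had a probe set with LP below HP (RefSeq, GRCr8, chr20:4604119-4604368, minus strand, and chr20:4576807-4577056, plus strand). The capitals mark the Y box of class II promoters.
RT1-Bb: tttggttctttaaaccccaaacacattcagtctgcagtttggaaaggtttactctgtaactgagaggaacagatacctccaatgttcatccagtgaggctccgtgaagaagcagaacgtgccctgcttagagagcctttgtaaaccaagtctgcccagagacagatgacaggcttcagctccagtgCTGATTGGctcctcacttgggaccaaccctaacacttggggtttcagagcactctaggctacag
RT1-Ba: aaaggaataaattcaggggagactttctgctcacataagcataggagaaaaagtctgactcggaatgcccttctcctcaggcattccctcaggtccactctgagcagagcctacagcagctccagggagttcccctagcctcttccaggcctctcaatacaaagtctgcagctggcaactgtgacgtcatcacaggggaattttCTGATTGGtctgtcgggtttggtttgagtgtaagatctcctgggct
The letters searched were CTGATTGG on both strands, which hold ATTGG, the CCAAT box of the opposite strand. They lay 64 to 57 bases before the start in RT1-Bb and 46 to 39 in RT1-Ba, and 3.2% of all windows held them. The windows of RT1-Da and RT1-Db1 held the same letters as well. That of RT1-DMa lacked this exact match but held the shorter ATTGG, so the search cannot tell whether it has a Y box. RT1-Db1 had differences of 0.21 ± 0.81 and -0.29 ± 0.21 at its 2 probe sets.

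Antioxidant and detoxification enzymes held the only called member of any group beside the injury genes, Gpx2, counted in both. Of their 50 probe sets, 11 (22.0%) were apart between the sham groups, beside 15.4% of all, 5 above and 6 below, and the median was -0.05. The glutathione peroxidase Gpx1 had 1527.3, 1786.8 and 1427.5 in HP and 1059.4, 1100.3 and 1000.4 in LP (-0.58 ± 0.14, limma adjusted p = 0.272), and Gpx4, which protects membrane lipids, had -0.29 ± 0.10. For these 2 and Gpx2 the LP arrays were all below the HP arrays. Glutathione reductase, Gsr, had the opposite sign (0.62 ± 0.20, unadjusted p = 0.0112), as had the carboxylesterase gene Ces1d (1.43 ± 0.43). The quinone reductase gene Nqo1 had -0.07 ± 0.14, and Gclm -0.08 ± 0.14.

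No gene that carries the electrical or chemical signals of nociceptors passed the adjusted threshold between the uninjured lines. Of 32 probe sets of nociceptor and sensory neuron markers, 25% were apart between the sham groups, beside 15.4% of all probe sets. All LP values lay above for 6 of them and below for 2, and the median was 0.07. Scn10a, the sodium channel Nav1.8, had 3007.4, 2770.1 and 2677.1 on the HP sham arrays and 2530.5, 2754.4 and 2847.3 on the LP sham arrays. These overlap, with a log2 difference of -0.06 (95% interval -0.25 to 0.14). After ligation the 3 HP arrays had 1132 to 1153.4 and the 3 LP arrays 733.1 to 769.6, with no overlap (-0.61 ± 0.09, limma adjusted p = 0.0404). The interaction for Scn10a had an unadjusted p of 0.00109 and a limma adjusted p of 0.646. Scn9a (Nav1.7) had -0.09 (-0.41 to 0.23) and Scn11a (Nav1.9) 0.26 (-0.20 to 0.73), the latter with 1 high LP array at 3029.9 against 1887.4 and 1898.7. Trpv1 had -0.13 (-0.51 to 0.25) at 1368313_a_at and -0.02 (-1.05 to 1.02) at its brightest probe set. The substance P precursor gene Tac1 had 0.22 (-0.13 to 0.56) and Calca -0.16 (-0.37 to 0.06) at its brightest probe set. For these genes a missing call does not show equality, and the intervals allow differences of up to 0.73 in log2, and more for Trpv1.

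**Figure D4:**
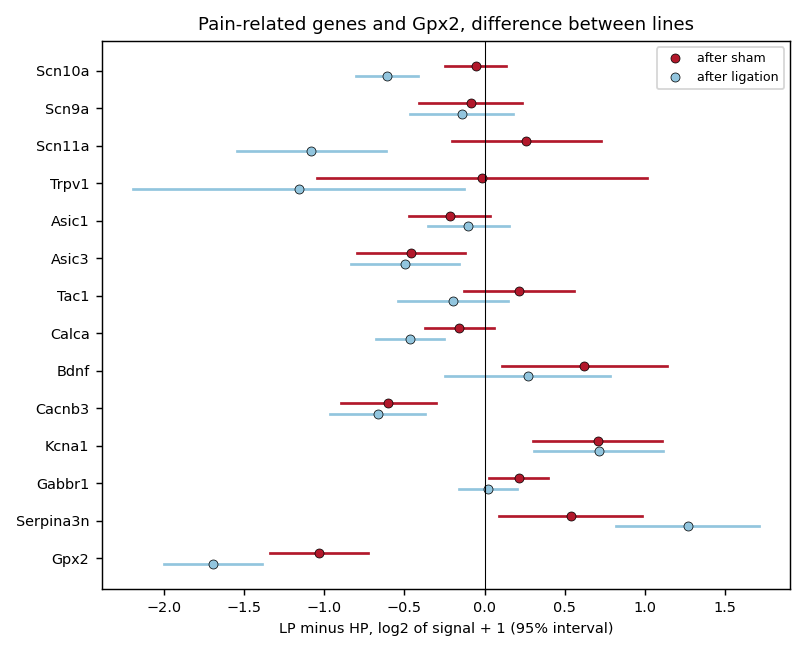
Difference between lines, LP minus HP on the log2(signal + 1) scale, with the 95% interval of the limma fit, after sham (red) and after ligation (light blue), for 13 genes linked to pain and for Gpx2, each at its brightest probe set. After sham the intervals of Scn10a, Scn9a, Scn11a, Trpv1, Asic1, Tac1 and Calca include 0, and Gpx2 is the only one past the adjusted p of 0.05.

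Among the channels and receptors as groups, no member passed. Of 38 probe sets of sodium and calcium channel subunits, 3 (7.89%) were apart between the sham groups, fewer by share than the 15.4% of all probe sets, and of 69 of opioid, cannabinoid, amine and peptide receptors 8.70%. Cacnb3, a calcium channel beta subunit, had 1549, 1667.7 and 1481.7 in HP and 1142.3, 1015.6 and 943.3 in LP (-0.60 ± 0.13, limma adjusted p = 0.21), and the acid-sensing channel gene Asic3 had 2227.9, 1910.1 and 2248.8 against 1654.7, 1735.9 and 1280.6 (-0.46 ± 0.15, limma adjusted p = 0.403). Both were apart, and both had a like difference after ligation (-0.67 ± 0.13 and -0.50 ± 0.15). Kcna1, a potassium channel that limits firing, had 1377.3, 1367.8 and 1110.6 in HP and 1675.9, 2717.9 and 1998.3 in LP (0.71 ± 0.18, limma adjusted p = 0.297), and again 0.71 ± 0.18 after ligation. Of 65 potassium channel probe sets 7 had LP above and 5 LP below (18.5% apart, beside 15.4% of all), with a median of 0.04. Of 46 GABA and glutamate receptor probe sets, 6 had all LP values above HP and none had all below (13% apart, beside 15.4% of all). Among the 6 were the GABA receptor genes Gabrg3 (0.53 ± 0.15) and Gabbr1 (0.43 ± 0.14 at 1369371_a_at). At an unadjusted limma p under 0.05, 5 of the 46 were higher in LP and 2 were lower. The kinin receptor gene Bdkrb2 had 0.76 ± 0.20 at 1370649_at, but 0.40 ± 0.19 and -0.19 ± 0.23 at its other probe sets, which overlapped, and the prostaglandin receptor gene Ptger3 had 79.8, 41.7 and 34.2 in HP against 6.2, 11.5 and 12.5 in LP (-2.21 ± 0.67), with 0.24 ± 0.21 at its brighter probe set.

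Of 44 probe sets of growth factors for sensory neurons and their receptors, 29 had a positive difference, beside 52.5% of all probe sets, and none passed the adjusted threshold. All LP values lay above for 9 and below for 3 (27.3% apart, beside 15.4% of all), and the median difference was 0.09 beside 0.02 over all probe sets. Persephin, Pspn, a GDNF family ligand, had 256.8, 321.2 and 260.8 in HP and 445.3, 418.2 and 387.2 in LP (0.58 ± 0.14, limma adjusted p = 0.26). Gfra2, the receptor of neurturin, had 219.5, 203.8 and 235.5 in HP and 297.5, 266.8 and 258.2 in LP at 1375359_at (0.32 ± 0.11, limma adjusted p = 0.422) and the same sign at its other probe set. Bdnf, the gene of brain-derived neurotrophic factor, had 187.8, 189.4 and 154.4 against 184.2, 343.4 and 318.7 (0.62 ± 0.23) at 1368677_at and no gap at its other probe set (0.01 ± 0.31), and its receptor gene Ntrk2 0.45 ± 0.16 at 1368972_at, with the mean over its probe sets at -0.29. Neither passed, and the Bdnf groups overlapped through LP sham replicate 1.

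The inhibitor in the study's title, Serpina3n, had signals of 180.6, 173.1 and 243.3 on the HP sham arrays and 382, 246.6 and 249 on the LP sham arrays. The groups did not overlap, but 2 LP arrays lay just above the highest HP array, and LP sham replicate 1 stood highest. The log2 difference of 0.54 ± 0.20 did not pass (limma adjusted p = 0.458), and none of 24 alternatives called it. After ligation HP had 659.9 to 837.1 and LP 1560.1 to 1967.4 (1.27 ± 0.20, limma adjusted p = 0.0528). The interaction of Serpina3n had an unadjusted p of 0.0281 and a limma adjusted p of 0.984. No probe set tested here carries the symbol of the elastase gene Elane, which was not analysed here. Of 34 probe sets of serpins and other protease regulators 4 (11.8%) were apart, beside 15.4% of all probe sets. Serpina3n had LP above, and Serpina3m (-0.88), Serpinf1 (-0.22) and Timp3 (-0.33) had LP below. Among 45 nerve injury and regeneration probe sets the only call was Gpx2, where 0.0441% of all probe sets were called. Of the 45, 17.8% were apart, 5 with LP above and 3 below, and the median was 0.09.

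Glial genes had differences of both signs. Sox10, the transcription factor of Schwann cells and satellite glia, had 1144.9, 1180 and 1107.3 on the HP sham arrays and 862.7, 878.1 and 861.7 on the LP sham arrays (-0.40 ± 0.10, limma adjusted p = 0.26). Fabp7, a fatty acid binding protein of satellite glia, had 665.1, 736.6 and 961.1 in HP and 1405.6, 1337.8 and 1284.5 in LP (0.79 ± 0.19, limma adjusted p = 0.264). Both gaps had the same sign and a like size after ligation (-0.44 ± 0.10 and 0.74 ± 0.19). Satellite glia markers had 2 of 24 probe sets apart (8.33%), with a median of 0.01. Of 24 myelin and Schwann cell probe sets 29.2% were apart, beside 15.4% of all, 5 with LP below and 2 above, and the median was -0.09. Beside Sox10, those below were the myelin genes Pllp (-0.29 ± 0.12) and Cnp (-0.18 ± 0.12), Mog (-1.72 ± 0.92) and the transcription factor gene Egr2 (-0.19 ± 0.20). Mog was also on the list of central nervous system glia markers. Those above were the myelin genes Pmp22 (0.27 ± 0.11) and Mbp (0.13 ± 0.09), and none of the 7 passed the adjusted threshold.

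Interferon response genes had 6 of 22 probe sets apart between the sham groups (27.3%), 3 with LP above and 3 below, and none passed. Over all probe sets 15.4% were apart. Stat2, a signal carrier of type I interferon receptors, had a log2 difference of 0.39 ± 0.11 (limma adjusted p = 0.36), and Oas1a, an enzyme that senses double-stranded RNA, one of -0.39 ± 0.15. Of 27 complement probe sets 3 (11.1%) were apart, and of 50 of cytokines, chemokines and their receptors 3 (6.0%), all with LP above. Neuropeptide genes had 5 of 27 apart (18.5%), TRP, acid-sensing and P2X channels 4 of 28 (14.3%), and tetrahydrobiopterin and nitric oxide synthesis genes 0 of 10.

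No macrophage gene passed the adjusted threshold. Of 29 macrophage and monocyte probe sets, 21 had a negative difference, beside 47.5% of all probe sets, and the median was -0.13. All LP values lay below for 5 and above for 1, beside 6.91% and 8.47% of all. Their summed signal was 17242 to 19503 on the HP sham arrays and 15234 to 16545 on the LP sham arrays. These sums include Cd74, at 1903.3 to 2001.3 in HP and 766.4 to 1408.6 in LP, and were not taken without it. The complement gene C1qa had 567.1, 631.1 and 503.7 in HP and 403.8, 441.3 and 492 in LP (-0.35 ± 0.13, limma adjusted p = 0.458), with C1qc at -0.32. Cx3cr1, the fractalkine receptor of resident macrophages, had 180.3, 222.1 and 265.2 in HP and 335.9, 296.5 and 321.5 in LP (0.53 ± 0.14, limma adjusted p = 0.296) and was the only macrophage probe set with all LP values above. Cd74 was counted here and among the antigen presentation genes, and the part of macrophage number in their difference was not tested. T cell, NK cell and B cell markers had 2 of 22 probe sets apart (9.09%) with a median of 0.03, and neutrophil and mast cell markers 1 of 23 (4.35%) with a median of 0.06.

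No muscle or cell cycle gene passed the adjusted threshold, and the median differences were -0.15 over the muscle probe sets and -0.01 over the cell cycle probe sets. Acta1, skeletal muscle actin, had 1232.7, 435.6 and 1015.7 on the HP sham arrays and 336.5, 363 and 493.2 on the LP sham arrays, so HP sham replicates 1 and 3 stood out. Of 55 muscle probe sets 34 had a negative difference, beside 47.5% of all probe sets. An unadjusted p under 0.05 was reached by 10 of these, beside 4.58% of all, and by none with a positive difference. Of the 55, 12.7% were apart between the sham groups, beside 15.4% of all, 3 with LP above and 4 below. After ligation the median of the muscle probe sets was 0.08. Their summed signal over all 55 was 19766 to 21738 in HP sham and 17381 to 18872 in LP sham. Mki67, a marker of dividing cells, had 19.2, 63.5 and 56.5 in HP and 6, 12.3 and 13.2 in LP (-1.94 ± 0.44, limma adjusted p = 0.236). On the ligated arrays, where the lowest Mki67 value was 127.1, the lines overlapped. Cdk1 had -1.77 ± 0.52. Of 35 cell cycle probe sets 2 were apart (5.71%), both with LP below (Mki67 and Mcm7). The part of muscle in the line difference was not tested.

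The ribosomal, respiratory chain, synaptic vesicle, lipid synthesis, and immediate early and heat shock groups had small median differences, between -0.10 and 0.11. All 6 of the 34 probe sets of cytosolic ribosomal proteins that were apart had LP below (17.6%, beside 6.91% of all with LP below), and the median was -0.10. Rpl35 had 3138.5, 3225.6 and 3372.2 in HP against 1723, 2641.1 and 2790.5 in LP (-0.48 ± 0.17), where LP sham replicate 1 was the lowest. Of 35 respiratory chain probe sets 2 had LP above and 4 below (median -0.07). Synaptic vesicle genes had 7 of 54 probe sets with LP above (13.0%, beside 8.47% of all with LP above) and none below, and the median was 0.11. Among the 7 were Syt11 at 0.35 ± 0.13, Rph3a at 0.43 and the vesicular glutamate transporter gene Slc17a7 at 0.45. Of 41 probe sets of cholesterol and fatty acid synthesis 5 had LP above and 1 below. The mevalonate pathway gene Mvd was the 1 below, with 445.7, 432.5 and 506.2 in HP against 341.4, 346.7 and 331.4 in LP (-0.44 ± 0.10, limma adjusted p = 0.211). Of 62 probe sets of immediate early and heat shock genes 6 had LP above and 4 below (16.1% apart). Dusp6, a phosphatase of the ERK pathway in this group, had 630.4, 781.8 and 762.7 in HP and 1005.4, 1212 and 1204.9 in LP (0.65 ± 0.14, limma adjusted p = 0.177) at 1387024_at, while its dimmer probe sets had -0.52 ± 0.23 and -0.13 ± 0.64. These groups held no probe set past the adjusted threshold. Their shares apart on either side, 13.0% to 17.6%, stood close to the 15.4% of all probe sets, while all those apart went 1 way in the ribosomal and synaptic groups.

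**Figure D5:**
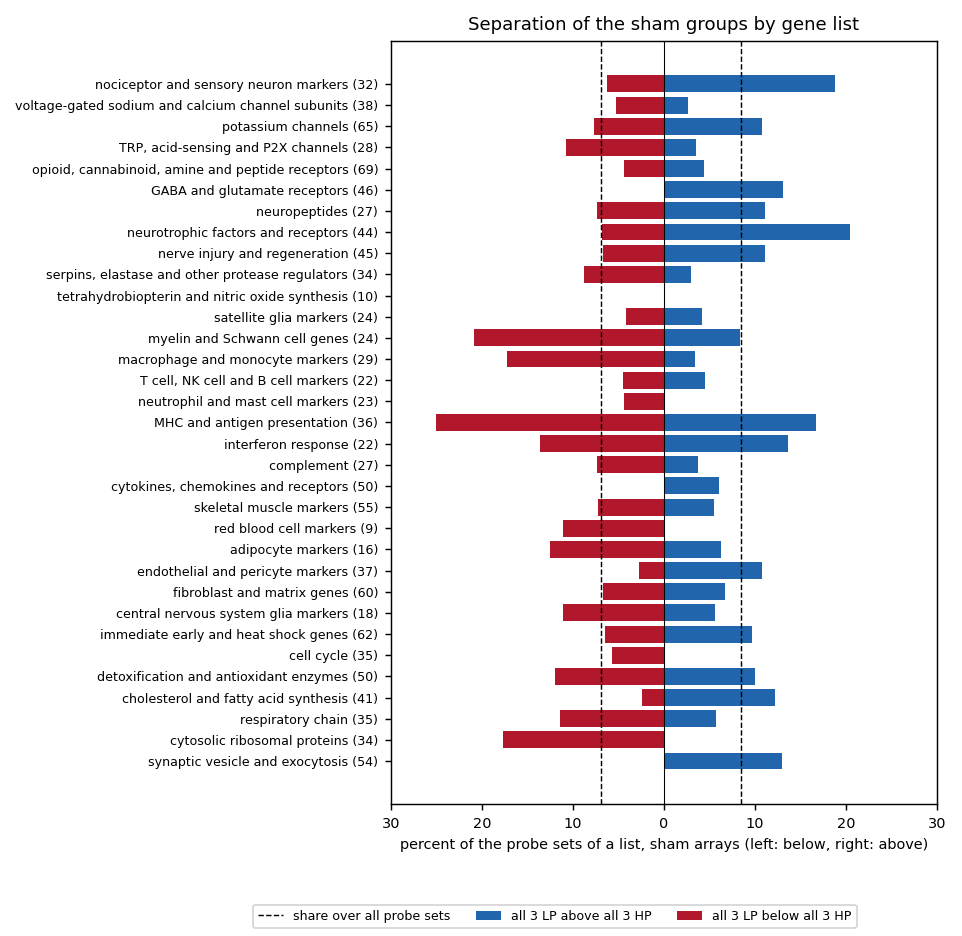
Share of the probe sets of each of 33 gene lists whose 3 LP sham values lie all above (right, blue) or all below (left, red) the 3 HP sham values, in percent, with the number of probe sets in brackets. Dashed lines mark the shares over all probe sets, 8.47% above and 6.91% below; antigen presentation reaches furthest to the left and neurotrophic factors furthest to the right.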

How the data were processed

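RNA of 12 rat ganglion samples was read on 1-colour Affymetrix arrays, 3 per group. The deposited values are linear intensity per probe set, from 0 to 13930.7. The submitters' processing notes name RMA, but the values are not on a log scale, and each array has the same trimmed mean (500.1 with 2% trimmed at each end), so the scaling behind them is not settled. The intensity values were used as the authors deposited them, as log2(intensity + 1), with no further normalization. Of 15923 probe sets, 57 controls were left out. The rest were named through the platform annotation and RefSeq, giving 12783 with 1 symbol, 312 with several and 2771 with none, and 10411 genes.

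Means of the 4 groups were fitted over all 12 arrays with limma 3.58.1 (R 4.3.3, statmod 1.5.0), two-sided, with Benjamini-Hochberg adjustment over 15866 probe sets and a threshold of 0.05. The fit was tested on simulated data. Differences are on the log2(intensity + 1) scale, which understates those of dim probe sets. The naming rule took Serpina3n (and Elane, for which no probe set was matched), the 20 probe sets with the smallest p (as fewer than 10 passed), genes whose probe sets were all called (none were), probe sets called after both operations, called neighbours (none), and of each list the called members, up to 4 by p, or otherwise at most 2 members by p. Other named genes, such as those whose probe sets all had an unadjusted p under 0.05, were picked after their values were seen. Members and the 33 gene lists were chosen with earlier results of these data known. Alternatives changed the pseudocount, dim filter, normalization, variance model, covariate, probe sets per gene and arrays used.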

Additional observations from a re-analysis of the deposited data

Results flagged for a closer look

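Over all 15866 probe sets, 65 (0.41%) were fully apart one way after sham and fully apart the opposite way after ligation, beside 587 (3.7%) apart on the same side. Of the 114 probe sets followed individually, 2 were among the 65. Gfra2, the neurturin receptor gene, had a line difference of 0.3187 after sham at 1375359_at and -0.24 after ligation, with an unadjusted interaction p of 0.00492 and a limma adjusted p of 0.918. Its other, brighter probe set did not turn, with 0.25 after sham and 0.04 after ligation. Cacna1g, a T-type calcium channel gene, had -1.1624 after sham at 1370508_a_at and 0.87 after ligation, with an unadjusted interaction p of 0.00316 and a limma adjusted p of 0.918. Neither line difference passed the adjusted threshold with either operation.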

How the results depend on the processing

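Over 24 alternatives, 2504 of 2653 differences of named probe sets kept their direction and their side of the threshold, 87 lost a call, 34 gained one and 28 turned; 32 of 792 list medians moved by more than 1 replicate SD. Counts called after sham (7), after ligation (23) and after both (3) were 0, 10 and 0 with the replicate number as a block. The labels do not say whether the numbers pair the samples. Deviations of same-numbered sham arrays correlated at -0.07, 0.06 and -0.17, which cannot settle it. The counts after sham, after ligation and after both were 15, 37 and 9 without the dimmest 25% and 1, 14 and 1 with quantile normalization. They were 38, 68 and 18 with trended and robust variance, 0, 7 and 0 with only the 6 arrays compared, and 0, 11 and 0 with the mean over probe sets of a gene. The actin covariate gave 15 and 14 for sham and ligation and 2 for the interaction, 1 probe set per gene gave 1 after sham and 1 after both, pseudocount 32 gave 44 after ligation and 6 after both, and array weights gave 37 after ligation. Leaving out 1 array gave 0 to 11 after sham, 1 to 22 after ligation, 0 to 5 after both and 0 to 3 for the interaction. Of the first 20 probe sets, the 14 with the same sign and an unadjusted p under 0.05 after ligation were 7 with separate fits, 8 with the actin covariate and 7 to 14 without 1 array. Directions turned for differences near 0, between probe sets of a gene, or at the dim RT1-Db1 probe set 1370382_at, whose difference was 0.21 ± 0.81. With the mean over probe sets RT1-Bb was 0.0718 and Ntrk2 -0.2893. With the actin covariate RT1-Db1 1370382_at was -0.4180, RT1-DMb -0.0006 and Gclc 0.0535. With quantile normalization Trpv1 1370685_at was 0.0004, RT1-DMb -0.0104 and RT1-CE5 1388254_a_at 0.0379. Median centring gave RT1-DMb -0.0255, and array weights gave Trpv1 1370675_at 0.0081 and Ythdf2 1375695_at 0.0621. Without 1 array, the differences ranged from -0.6062 to 0.9986 for RT1-Db1 1370382_at, from -0.1155 to 0.0720 for Trpv1 1370675_at, from -0.2955 to 0.0497 for Trpv1 1370685_at, from -0.0374 to 0.0395 for RT1-DMb 1370882_at, from -0.1220 to 0.0302 for Gclc 1372523_at, from -0.2297 to 0.1341 for Ythdf2 1375695_at, from -0.1624 to 0.0066 for Nqo1 1387599_a_at, from -0.1887 to 0.2464 for RT1-CE5 1388254_a_at and from -0.0883 to 0.0372 for Zswim6 1394012_at. The cause was not tested in any of these. Precision was lower for dim signals, with a median SE of 0.44 for the dimmest 25% of probe sets and 0.12 for the brightest.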
